A study of Mus musculus with 32 samples.

Results

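The genes described here are 10 members of the hepatic acute phase group: the serum amyloid genes Saa1, Saa2, Saa3 and Saa4, lipocalin 2 (Lcn2), the orosomucoids Orm1, Orm2 and Orm3, haptoglobin (Hp) and the cytokine feedback inhibitor Socs3. They were found as array probes whose RefSeq identifier belongs to one of these genes. Each gene had 1 probe, and all 10 were among the 23119 genes tested. Each probe was well above background on all 32 arrays, so no member was limited by detection. The labelled tissue was liver, and the 8 hepatocyte markers had a mean level between 8.28 and 8.87 in every array.

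The livers came from 32 male wild-type C57BL/6 mice, 1 mouse per 1-colour Agilent array. In the steady schedule (labelled NS), 16 singly housed mice lived in 12 h light and 12 h dark. In chronic jet lag (labelled CJ), 16 singly housed mice were moved between 2 rooms from 4 weeks of age, with light onset 8 h apart. Collection was at ZT2, ZT10 and ZT18 (zeitgeber time in hours, counted from lights on, with lights off at ZT12), at 12 or 30 weeks of age. This gave 12 groups, with 2 mice per group at ZT2 and 3 mice per group at ZT10 and ZT18. No mouse carried a transgene or a deletion by the labels, and they do not say how long after the last room change the jet-lagged livers were taken.

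The acute phase response is the change in the proteins that the liver secretes during infection, injury or other inflammation. Interleukin-6 acting through STAT3, interleukin-1 acting through NF-kappaB and C/EBP factors, and glucocorticoids together raise the positive acute phase genes in hepatocytes, while negative acute phase genes such as albumin and transthyretin fall. In the mouse Saa1 and Saa2 are the steeply inducible serum amyloids carried on high-density lipoprotein, Saa3 is also made by macrophages and fat cells, and Saa4 is regarded as the constitutive member. Lcn2 binds bacterial siderophores and so withholds iron, the orosomucoids are plasma carriers of small molecules, Hp binds free haemoglobin, and Socs3 is a direct STAT3 target that blocks further signalling.

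Levels are log2 processed signals from which the 75th percentile of their array was subtracted, so 1 unit is a doubling and 0 is the level of the 75th percentile. A level belongs to 1 probe and is not set against that of another gene. Changes are fitted differences in log2 units with their standard error (SE), jet lag minus steady unless another order is named. A change was called when its adjusted p was under 0.05 in limma's moderated test, adjusted over all 23119 genes by Benjamini-Hochberg. Counts at an unadjusted p under 0.05 come without the share of all genes at that cut-off. They cannot be set against the percentages of genes called. The share of all genes whose groups did not overlap is not given either for comparisons at 1 time and age. Nor is it given between times or in the order of the 12 groups. A lack of overlap there describes the levels only.

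The sequences just upstream of the genes are shown because Saa1 and Saa2, and likewise Orm2 and Orm3, are close copies, and because their levels are compared below. RefSeq promoter windows (GRCm38.p6, from 250 bases before to 50 bases after the transcription start) were at hand for 8 of the 10 members. In gene order on chromosome 7 the serum amyloids follow each other as Saa3, Saa4, Saa1 and Saa2, with a long non-coding RNA and a serum amyloid pseudogene between them. On chromosome 4 the order is Orm1, Orm3 and Orm2, with a pseudogene after Orm1. The windows are written 5′ to 3′ on the gene's strand, and capitals mark matches to the C/EBP motif TTNNGNAA or to the TATA motif TATAAA. They lie at chr7:46742931-46743230 (minus strand) for Saa1, chr7:46751583-46751882 (plus) for Saa2, chr7:46732554-46732853 (minus) for Saa4, chr4:63362199-63362498 (plus) for Orm2 and chr4:63355908-63356207 (plus) for Orm3.
Saa1: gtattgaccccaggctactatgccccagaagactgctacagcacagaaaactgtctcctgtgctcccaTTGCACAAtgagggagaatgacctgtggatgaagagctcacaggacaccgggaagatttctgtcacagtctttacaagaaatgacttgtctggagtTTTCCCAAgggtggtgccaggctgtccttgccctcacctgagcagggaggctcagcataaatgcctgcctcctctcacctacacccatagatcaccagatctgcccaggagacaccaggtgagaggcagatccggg
Saa2: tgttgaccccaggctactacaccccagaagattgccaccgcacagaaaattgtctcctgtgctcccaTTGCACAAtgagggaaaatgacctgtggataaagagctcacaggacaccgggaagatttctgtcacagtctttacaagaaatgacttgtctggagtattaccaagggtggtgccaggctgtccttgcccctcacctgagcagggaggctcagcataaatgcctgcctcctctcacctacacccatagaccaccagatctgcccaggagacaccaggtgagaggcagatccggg
Saa4: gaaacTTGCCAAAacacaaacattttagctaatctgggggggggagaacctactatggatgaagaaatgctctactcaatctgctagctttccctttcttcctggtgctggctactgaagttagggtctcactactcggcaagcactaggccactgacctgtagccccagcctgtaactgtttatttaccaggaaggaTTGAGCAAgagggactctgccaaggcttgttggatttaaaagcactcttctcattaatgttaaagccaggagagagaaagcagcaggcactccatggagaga
Orm2: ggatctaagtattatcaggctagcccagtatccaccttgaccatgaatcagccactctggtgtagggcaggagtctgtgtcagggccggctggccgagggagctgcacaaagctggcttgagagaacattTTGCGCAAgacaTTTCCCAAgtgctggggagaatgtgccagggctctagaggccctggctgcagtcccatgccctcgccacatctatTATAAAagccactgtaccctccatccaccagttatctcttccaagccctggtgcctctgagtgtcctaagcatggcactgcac
Orm3: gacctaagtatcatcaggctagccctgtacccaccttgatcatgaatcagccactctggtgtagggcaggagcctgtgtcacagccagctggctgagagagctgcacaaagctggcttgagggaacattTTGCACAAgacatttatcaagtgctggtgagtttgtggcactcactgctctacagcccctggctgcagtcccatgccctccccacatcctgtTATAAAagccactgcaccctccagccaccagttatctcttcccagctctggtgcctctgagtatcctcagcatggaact
The windows of Saa1 and Saa2 were identical in 95.3% of aligned positions, and those of Orm2 and Orm3 in 86.2%. The other pairs among the 8 windows reached 42.2% to 51.4%. A C/EBP match on either strand stood in 7 of the 8 windows, Socs3 being the exception, against 40.7% of all 32851 windows. The TATA match stood in the windows of Orm2 and Orm3 and in 13.6% of all windows. The STAT motif TTCNNNGAA was matched in the Socs3 window and in 8.3% of all windows, and the glucocorticoid receptor motif AGAACA in the Orm2 window and in 19% of all windows. A match describes the letters only.

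At 30 weeks and ZT2, 7 of the 10 genes were higher in jet-lagged than in steady livers: Saa1, Saa2, Saa3, Lcn2, Orm2, Orm3 and Hp. In the same comparison 1.36% of all genes tested were called in either direction and 0.497% were called higher. The members' median change was 2.02, against -0.02 over all genes. Saa1 and Saa2 differed about as much as each other, at 51.8-fold and 49.2-fold, followed by Lcn2 at 12.1-fold, Orm3 at 9.25-fold and Saa3 at 5.76-fold. This comparison set 2 mice against 2, each on a different slide, so no within-slide value exists for it. Each replicate is another mouse, and the small number of arrays limits the precision.

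Saa1 stood at 10.12 and 9.29 in the jet-lagged mice at ZT2 and 30 weeks, and at 4.59 and 4.37 in the steady mice. Both jet-lagged livers were far above both steady ones, and the steady pair lay near the bottom of the Saa1 range of the whole series. The fitted Saa1 change was 5.70 ± 0.87 (SE; adjusted p = 0.00124, limma). Saa2 read 9.83 and 9.21 against 4.57 and 4.34, a fitted change of 5.62 ± 0.88 (adjusted p = 0.00137, limma). The 2 genes encode nearly identical transcripts, and how far each probe also reads the other gene was not tested.

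Saa3, whose product also comes from macrophages and fat cells, read 2.79 and 2.54 in the jet-lagged pair against 0.22 and 0.58 in the steady pair. The groups did not overlap, but pairs of mice can also separate by chance, and how many of all genes did so was not counted. The Saa3 change was 2.53 ± 0.45 (adjusted p = 0.00454, limma). The 11 Kupffer cell and macrophage markers tested held no called gene here (0 also at an unadjusted p under 0.05 in the limma test), and their mean level was 2.86 and 2.73 in the jet-lagged livers against 2.58 and 2.43 in the steady ones. The fat cell markers had a mean level of -1.47 and -0.73 against -1.45 and -0.09. The part of either cell type in the Saa3 result was not tested. Saa4, the constitutive member, read 4.72 and 4.77 against 4.21 and 4.40. Its change of 0.53 ± 0.22 did not pass the test (adjusted p = 0.286, limma).

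Lcn2 read 4.13 and 2.41 in the jet-lagged livers and -0.02 and 0.23 in the steady ones. The jet-lagged mice differed from each other by more than 1 unit, yet both lay above the steady pair, and the change was 3.59 ± 0.63 (adjusted p = 0.00368, limma). Neutrophils also make Lcn2, and 0 of the 7 neutrophil markers tested were called (1 at an unadjusted p under 0.05 in the limma test). Their mean level was 0.12 and 0.46 in the jet-lagged livers, below the 0.54 and 1.11 of the steady ones. Of the 12 neutrophil markers listed, S100a8, S100a9, Camp, Elane and Csf3r were well above background on all 32 arrays, Retnlg on 22, Ltf on 17, Cxcr2 on 2, Ngp and Mmp8 on 1 each, and Mpo and Mmp9 on 0. Their part in the Lcn2 result was not tested.

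Orm3 read 2.72 and 3.46 in the jet-lagged livers and 0.41 and -0.45 in the steady ones. No other group overlapped with these levels in the order of the 12 groups, and the change was 3.21 ± 0.47 (adjusted p = 0.00102, limma). Orm2 read 7.33 and 7.22 against 6.42 and 6.29, a change of 1.01 ± 0.26 that lay at the edge of the threshold (adjusted p = 0.0496, limma). Orm1 read 6.97 and 7.04 against 6.37 and 6.20, and its change of 0.81 ± 0.24 did not pass (adjusted p = 0.0957, limma). The Orm2 and Orm3 probes thus gave changes of different size although the promoter windows printed above share most of their letters, and the difference between the 2 changes was not tested.

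Hp read 10.49 and 10.19 against 9.56 and 9.83, a change of 0.72 ± 0.16 (adjusted p = 0.0219, limma). The Hp call was lost with slide as a fixed block (0.80, adjusted p = 0.0547), without a slide block (0.64, adjusted p = 0.0544), without the 10 acinar-rich arrays, those with a mean of pancreatic acinar markers above 1 (0.68, adjusted p = 0.0742) and with 1 age alone (0.66, adjusted p = 0.0849). Under either other treatment of the slide 5 of the 10 genes passed, and Hp and Orm2 did not. Socs3 read 1.27 and 2.45 against 0.22 and 1.01. Its pairs also did not overlap, but the spread within groups was wide, and the change of 1.51 ± 0.77 did not pass (adjusted p = 0.447, limma).

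Leaving out single mice showed how far the calls at ZT2 and 30 weeks rested on each of them. Saa1, Saa2 and Orm3 passed in all 32 fits that left out 1 array. Without jet-lagged mouse 1, or without steady mouse 1, 3 genes passed. Without that jet-lagged mouse the Lcn2 change was 2.69 (adjusted p = 0.152, limma), the Saa3 change 2.53 (adjusted p = 0.0612) and the Hp change 0.59 (adjusted p = 0.302). Without that steady mouse they were 3.48 (adjusted p = 0.0616), 2.29 (adjusted p = 0.0913) and 0.54 (adjusted p = 0.312). The Orm2 call was lost in 26 of the 32 fits.

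**Figure D1:**
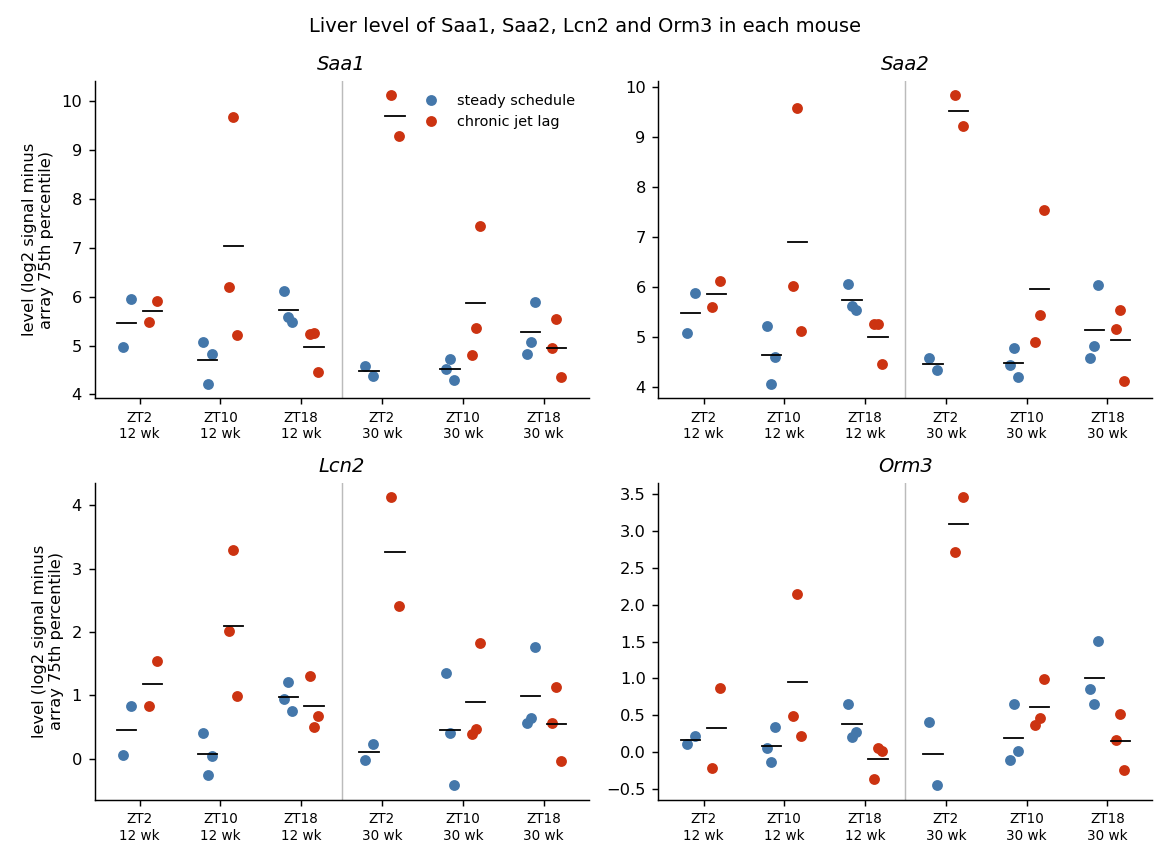
Level of Saa1, Saa2, Lcn2 and Orm3 in every liver, as log2 signal relative to the 75th percentile of its array, on the vertical axis, by time and age on the horizontal axis; each point is 1 mouse (blue steady schedule, red chronic jet lag) and each bar is the group mean. The jet-lagged pair at ZT2 and 30 weeks lies above both steady mice of that time and age in each panel, and for Saa1 1 jet-lagged mouse at ZT10 and 12 weeks, at 9.68, lies between the 9.29 and 10.12 of that pair.

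Among other genes of the response, the list of 24 further positive acute phase genes had 22 tested, of which 4 were called higher and 0 lower at ZT2 and 30 weeks (11 at an unadjusted p under 0.05). The list's median change was 0.26. The metallothioneins, metal-binding proteins induced by cytokines and glucocorticoids, changed most among them. Mt1 read 6.15 and 6.35 in the jet-lagged livers against 3.42 and 3.35, a change of 2.97 ± 0.39 (adjusted p = 0.000246, limma). Mt2 changed by 2.46 ± 0.52 (adjusted p = 0.0169). In steady mice of 30 weeks Mt1 and Mt2 also varied with time of day, with ranges of 2.31 and 2.08 (adjusted p = 0.000118 and 0.00793, limma). A steady liver at ZT10 and 12 weeks reached 6.14 for Mt1.

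Serpina3n, an extracellular protease inhibitor, changed by 0.83 ± 0.20 (adjusted p = 0.0417, limma) and Itih3, a hyaluronan-binding plasma protein, by 0.63 ± 0.16 (adjusted p = 0.0446). These 2 genes were not called over time in steady mice of 30 weeks (adjusted p = 0.272 and 0.585, limma). Lrg1, Lbp and Hpx had changes of 0.91 ± 0.27, 0.78 ± 0.22 and 0.64 ± 0.17 that did not pass (adjusted p = 0.0957, 0.0727 and 0.0684, limma).

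Not all positive acute phase genes shared the direction. The fibrinogen genes Fga, Fgb and Fgg had changes of -0.30 ± 0.18, -0.32 ± 0.15 and -0.36 ± 0.16 at ZT2 and 30 weeks, none of which passed. Over the mean of the 3 times at 30 weeks, Fga fell by 0.36 ± 0.09, Fgb fell by 0.30 ± 0.07 and Fgg fell by 0.33 ± 0.08 (adjusted p = 0.0134, 0.0124 and 0.0103, limma). Crp, C-reactive protein, which is a minor acute phase protein in the mouse, fell by 0.26 ± 0.07 (adjusted p = 0.0378). Of the 12 negative acute phase genes, 0 were called at ZT2 and 30 weeks (2 at an unadjusted p under 0.05, limma), with a median change of -0.12. Albumin (Alb) changed by -0.21 ± 0.14 and transthyretin (Ttr) by -0.31 ± 0.14.

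**Figure D2:**
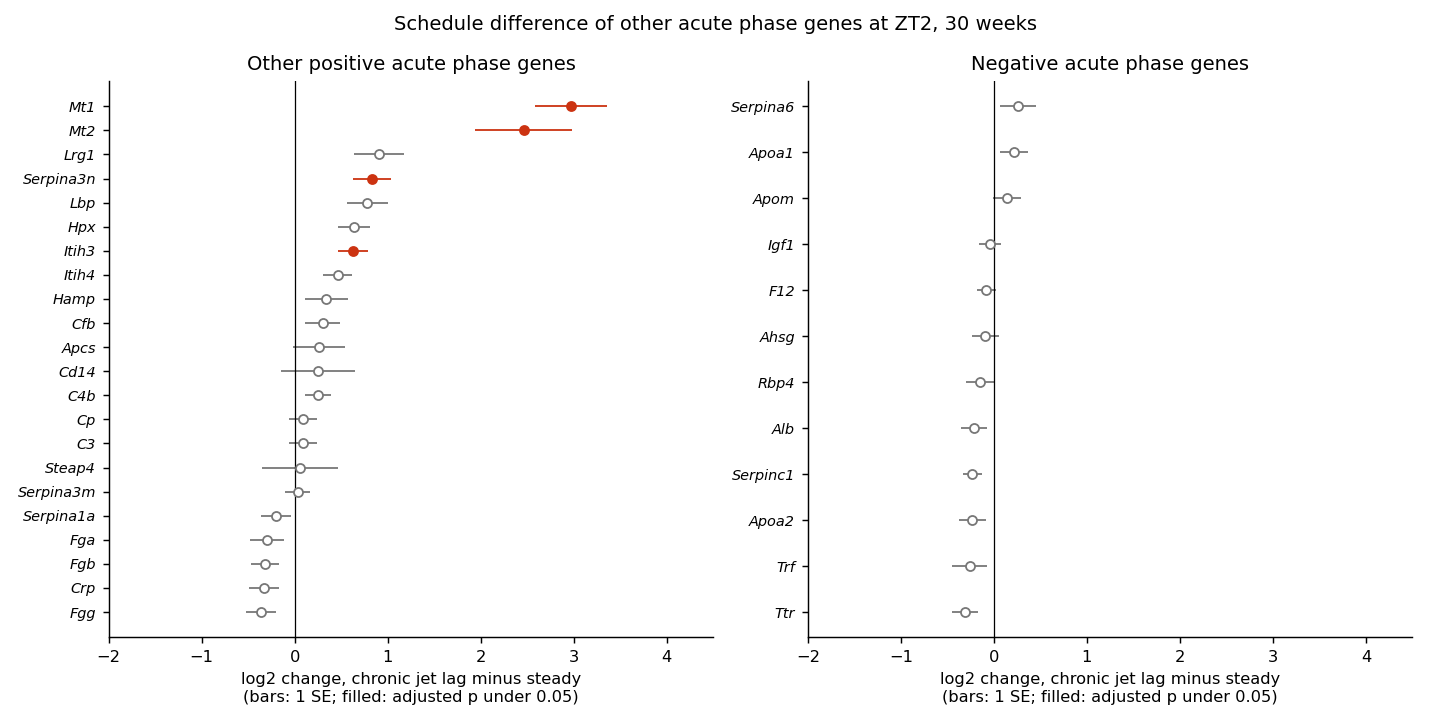
Fitted change at ZT2 and 30 weeks (log2, jet lag minus steady, horizontal axis) of 22 other positive and 12 negative acute phase genes (vertical axis), with bars of 1 SE and filled points where the adjusted p was under 0.05. Mt1, Mt2, Serpina3n and Itih3 are called on the positive list and none on the negative list.

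Of 30 tested genes of cytokine signalling, 1 was called at ZT2 and 30 weeks (4 at an unadjusted p under 0.05). It was Il6ra, the ligand-binding interleukin-6 receptor chain, which read 4.43 and 3.79 against 3.44 and 2.97 and changed by 0.94 ± 0.23 (adjusted p = 0.0398, limma). The signal transducers Stat3 and Il6st changed by -0.10 ± 0.20 and -0.12 ± 0.13, and the C/EBP genes Cebpb and Cebpd by 0.41 ± 0.27 and 0.46 ± 0.28, none of which passed. The NF-kappaB cofactor Nfkbiz and the interleukin-1 receptor Il1r1 changed by 0.64 ± 0.23 and 0.73 ± 0.27 (adjusted p = 0.187 and 0.202). Of 14 glucocorticoid targets, 2 were called higher, Mt2 and the clock gene Per1, which changed by 2.01 ± 0.45 (adjusted p = 0.0244). Mt2 was also counted on the positive acute phase list. The targets did not all read higher: Tat read 5.20 and 5.70 and Dusp1 0.19 and 1.03 in the jet-lagged pair. Their steady means over the 3 times at 30 weeks were 6.21 and 1.32. Klf9 read 3.86 and 4.09 against such a mean of 3.46. In steady mice of 30 weeks Il6ra, Per1 and Tat also varied with time of day, by 1.62, 4.26 and 0.79 (adjusted p = 4.69e-05, 2.13e-06 and 0.00648, limma). The part of time of day in these schedule changes was not tested.

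Among 11 tested genes for ligands, partners and clearance of the members, 1 was called at ZT2 and 30 weeks. The haemoglobin chain Hba-a1, a ligand of haptoglobin carried by red blood cells, read 6.35 and 6.15 in the jet-lagged livers against 7.81 and 7.32. It fell by 1.46 ± 0.27 (adjusted p = 0.00661, limma). In whole liver RNA, fewer cells of a type and less RNA per cell cannot be told apart. The pancreatic acinar markers were at a mean level of -1.83 and -1.72 in these jet-lagged livers and -1.86 and -1.54 in the steady ones, and the hepatocyte markers at 8.28 and 8.33 against 8.53 and 8.53. The stellate, endothelial and biliary markers were at a mean of 0.26 and 0.40 against 0.86 and 0.73, and 0.26 was the lowest of the 32 arrays. Of these 10 markers 1 was called, Lrat, which fell by 0.79 (adjusted p = 0.0485, limma). The biliary markers Epcam, Krt7 and Krt19 read -5.18 and -4.71, -4.32 and -3.52, and -2.20 and -1.77 in the jet-lagged pair. In the steady pair of that time and age they read -3.7 and -3.83, -2.94 and -3.16, and -1.17 and -1.04. Spp1, also on this list, overlapped between the pairs, at 0.44 and 0.3 against 0.71 and 0.09. Epcam was well above background on 10 of the 32 arrays. Stab2, Clec4g and Dcn read 4.15 and 4.12, 5.23 and 5.31, and 6.35 and 6.34 in the jet-lagged pair. The steady pair read 4.29 and 4.13, 5.47 and 5.38, and 6.59 and 6.56. The skeletal muscle mean was -4.71 and -4.92 against -4.82 and -0.20. The part of these values in the results was not tested.

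The same comparison at the other times of 30 weeks gave 0 called members. At ZT10, where 0.679% of all genes were called, 2 members had an unadjusted p under 0.05 (limma), Saa2 and Hp. Saa1 read 4.81, 5.35 and 7.44 in the jet-lagged mice against 4.51, 4.73 and 4.29 in the steady mice. The 3 jet-lagged livers were all above the 3 steady ones, but mouse 3 carried most of the difference, and the change of 1.37 ± 0.69 did not pass (adjusted p = 0.451). Hp changed by 0.41 ± 0.13 (adjusted p = 0.151).

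At ZT18 and 30 weeks, where 3.51% of all genes were called, the members' median change was -0.58 and 2 members had an unadjusted p under 0.05 (limma). Saa4 read 4.74, 4.58 and 4.64 in the jet-lagged livers and 5.20, 5.25 and 5.25 in the steady livers. These groups did not overlap and were tight, and the change of -0.59 ± 0.17 lay just outside the threshold (adjusted p = 0.0594). With the filter that keeps probes well above background on all arrays it passed (-0.59, adjusted p = 0.0397). Orm3 changed by -1.01 ± 0.38 (adjusted p = 0.156).

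The schedule difference at 30 weeks varied with the time of day for 5 members, Saa1, Saa2, Saa3, Lcn2 and Orm3, in the test of schedule by time, in which 1.86% of all genes were called. For each of them the difference was largest at ZT2. The range of the difference over the 3 times was 6.35 for Saa1 (adjusted p = 0.0108, limma), 6.18 for Saa2 (adjusted p = 0.0146), 4.31 for Lcn2 (adjusted p = 0.016), 4.22 for Orm3 (adjusted p = 0.00296) and 2.49 for Saa3 (adjusted p = 0.048). Over all genes the median of this range was 0.36. Without steady mouse 2 of ZT2 and 30 weeks 1 member passed, Orm3, and the Saa1 range was 6.28 (adjusted p = 0.0505). Without steady mouse 1 of that group 3 members passed, and without jet-lagged mouse 1 of ZT2 and 30 weeks 2 members passed. The Saa3 call was lost in 21 of the 32 fits that left out 1 array.

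Averaged over the 3 times at 30 weeks, 6 members were higher under jet lag: Saa1, Saa2, Saa3, Lcn2, Orm3 and Hp. In that comparison 5.99% of all genes were called and 1.92% were called higher. The Saa1 change was 2.14 ± 0.41 (adjusted p = 0.00276, limma) and the Hp change 0.37 ± 0.07 (adjusted p = 0.00373). Without the ZT2 arrays, an alternative chosen after the data had been seen, 0 of the 6 passed. The Saa1 change was then 0.36 (adjusted p = 0.827) and the Hp change 0.20 (adjusted p = 0.234), and the Lcn2 and Orm3 changes turned to -0.14 and -0.26 (adjusted p = 0.907 and 0.71).

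At 12 weeks and ZT10, 3 of the 10 genes were called higher under jet lag, Hp, Saa4 and Lcn2, while 1.81% of all genes were called and 0.83% were called higher. The members' median change was 0.79, and 9 of the 10 had an unadjusted p under 0.05. Hp read 10.03, 10.62 and 10.06 in the jet-lagged livers and 9.55, 9.60 and 9.37 in the steady livers. The groups did not overlap, and Hp changed by 0.74 ± 0.13 (adjusted p = 0.00566, limma).

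Saa4 at ZT10 and 12 weeks read 5.05, 5.80 and 4.95 against 4.5, 4.40 and 4.38, a change of 0.86 ± 0.17 without overlap (adjusted p = 0.0133, limma). Saa4 was the serum amyloid called here and not at ZT2 and 30 weeks, and the difference between these comparisons was not tested. Lcn2 read 2.01, 3.29 and 0.99 against 0.40, -0.25 and 0.05, a change of 2.14 ± 0.50 (adjusted p = 0.029).

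Saa1 at ZT10 and 12 weeks read 6.19, 9.68 and 5.22 in the jet-lagged mice and 5.08, 4.22 and 4.83 in the steady mice. Jet-lagged mouse 2 was as high as the pair at ZT2 and 30 weeks, while mouse 3 was close to the steady mice. The change of 2.37 ± 0.69 did not pass (adjusted p = 0.0806, limma). Saa2 followed the same pattern, with 6.02, 9.57 and 5.11 in the jet-lagged mice. Mouse 2 was also the highest of its group for Saa3 (2.32), Orm1 (7.20), Orm2 (7.44) and Orm3 (2.14).

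The pancreatic acinar markers, which are not expected in liver, were at a mean level of 4.68 in jet-lagged mouse 2 and 4.49 in mouse 3 of ZT10 and 12 weeks, and at -1.55 in mouse 1. Saa1 was at 9.68, 5.22 and 6.19 in these 3 livers. In the 3 steady livers of that time and age the acinar mean lay between -1.68 and -0.24. The skeletal muscle markers were also higher there, with a median change of 4.12 over 11 genes, of which 0 were called (9 at an unadjusted p under 0.05, limma). With acinar and muscle marker means as covariates the Hp change was 0.75 (adjusted p = 0.113), the Saa4 change 0.83 (adjusted p = 0.202) and the Lcn2 change 1.85 (adjusted p = 0.32). Without the 10 arrays whose acinar mean was above 1, which leaves 1 jet-lagged mouse at this point, they were 0.58, 0.65 and 2.18 (adjusted p = 0.386, 0.24 and 0.426). The only pair of mice at ZT10 and 12 weeks that shared a slide differed by 0.67 for Hp, 0.67 for Saa4 and 1.97 for Lcn2.

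Single mice weighed on the ZT10 calls at 12 weeks. Without steady mouse 3, 0 members passed, and the Hp change was 0.69 (adjusted p = 0.0621, limma). Without jet-lagged mouse 2, 1 member passed, Hp. Without jet-lagged mouse 3, 6 members passed. Of the other lists in this comparison, 2 of 22 positive acute phase genes were called higher. These were Lrg1, a secreted glycoprotein, with 1.06 ± 0.21 (adjusted p = 0.0136), and Itih3, with 0.58 ± 0.13 (adjusted p = 0.019). Of 14 glucocorticoid targets 2 were called higher: Tsc22d3 and Fkbp5 changed by 0.85 ± 0.21 and 0.80 ± 0.20 (adjusted p = 0.0342 and 0.04). Not all targets read higher, as Per1 read 3.12, 3.22 and 3.37 in the jet-lagged livers against 3.70, 3.82 and 3.42. On the cytokine signalling list Cebpa, the C/EBP factor of resting hepatocytes, fell by 0.44 ± 0.11 (adjusted p = 0.0304). Tsc22d3, Fkbp5 and Cebpa were also called over time in steady mice of 12 weeks (adjusted p = 0.000962, 0.0313 and 0.000654, limma), and Lrg1 and Itih3 were not.

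**Figure D3:**
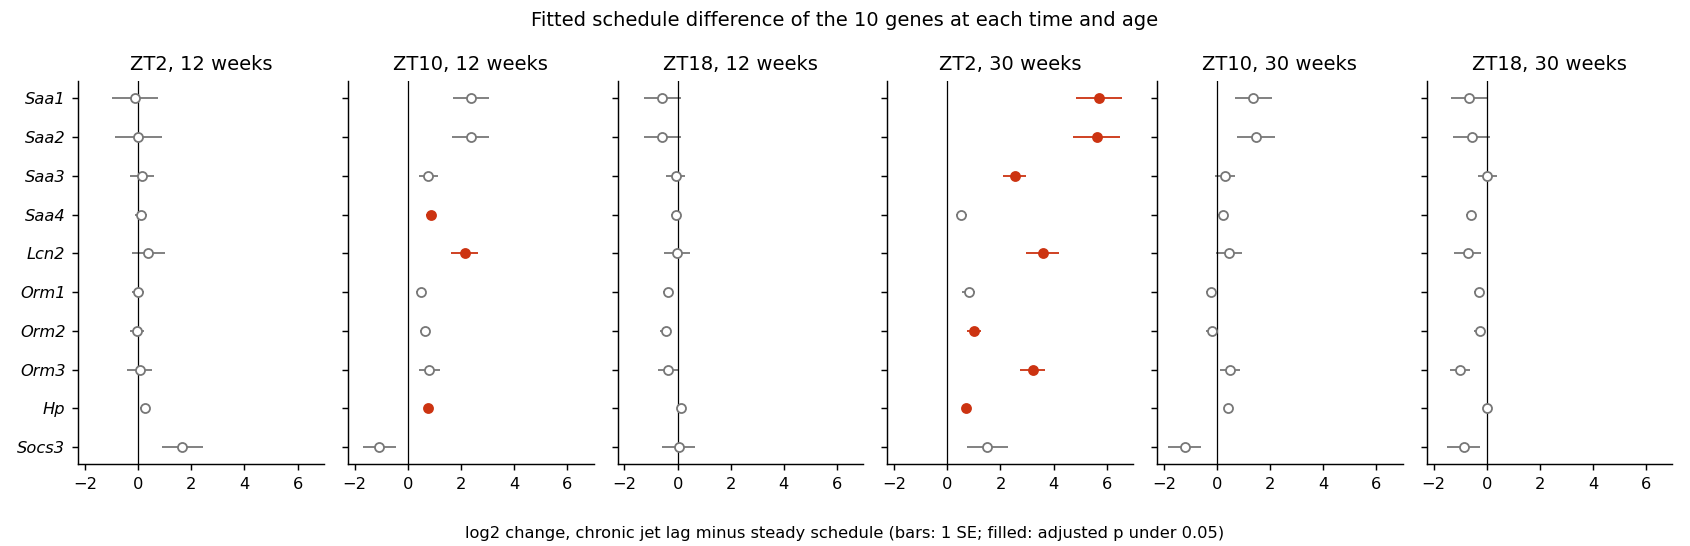
Fitted schedule difference (log2, jet lag minus steady, horizontal axis) of each of the 10 genes (vertical axis) in 6 panels, 1 for each time and age, with bars of 1 SE and filled points where the adjusted p was under 0.05. Filled points appear at ZT2 and 30 weeks (7 genes) and at ZT10 and 12 weeks (Saa4, Lcn2 and Hp).

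At the remaining times of 12 weeks 0 members were called. At ZT2, where 0.247% of all genes were called, Saa1 read 5.48 and 5.92 in the jet-lagged livers and 4.97 and 5.96 in the steady livers. The groups overlapped, and the sign of the small difference depended on the slide block: the change was -0.11 ± 0.87 with it and 0.23 without it (adjusted p = 0.98 and 0.933, limma). There 1 member, Socs3, had an unadjusted p under 0.05 (limma), and it read 2.14 and 2.97 against 1.14 and 0.42 with a change of 1.66 ± 0.77 (adjusted p = 0.424). At ZT18, where 2.88% of all genes were called, 1 member, Orm2, had an unadjusted p under 0.05, with a change of -0.45 ± 0.20 (adjusted p = 0.269). In the test of schedule by time at 12 weeks, with 1.94% of all genes called, 0 members passed and 8 had an unadjusted p under 0.05 (limma). Over the mean of the 3 times at 12 weeks, with 4.36% of all genes called and 1.95% called higher, 1 member passed, Hp.

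Hp differed between the schedules at both ages. Its change over the mean of the 3 times was 0.36 ± 0.07 at 12 weeks (adjusted p = 0.00876, limma) and 0.37 ± 0.07 at 30 weeks (adjusted p = 0.00373), or 1.28-fold and 1.30-fold, and both passed in each of the fits that left out 1 array. In jet-lagged livers Hp ranged from 9.99 to 10.62 with a median of 10.10, and in steady livers from 9.37 to 10.06 with a median of 9.87. At ZT2 and 12 weeks it read 9.99 and 10.21 against 9.95 and 9.70, and at ZT10 and 30 weeks 10.19, 10.24 and 10.04 against 9.98, 9.73 and 9.59.

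All 10 jet-lagged livers taken at ZT2 or ZT10 lay above all 10 steady livers of those times for Hp, with 9.99 as the lowest jet-lagged and 9.98 as the highest steady level. This split was chosen after the values were seen. Of 22999 genes measured on all arrays 1 gene, or 0.00435%, had its jet-lagged livers above its steady livers in that way. That gene was Hp itself, for which the split had been chosen, so the share is no test of Hp. The gap is narrow, and the groups overlapped after quantile normalization, where 8 of the 10 jet-lagged livers lay above the highest steady one, and in the authors' deposited values, where 6 did. At ZT18 the Hp change was 0.11 ± 0.13 at 12 weeks and 0.00 ± 0.13 at 30 weeks.

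Without the acinar-rich arrays the mean Hp change was 0.34 at 12 weeks (adjusted p = 0.109, limma) and 0.38 at 30 weeks (adjusted p = 0.053), which did not pass. The test of schedule by age over the mean of the times gave 0.01 ± 0.11 for Hp (adjusted p = 0.97), and in it 0.00865% of all genes and 0 members were called (4 members at an unadjusted p under 0.05).

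**Figure D4:**
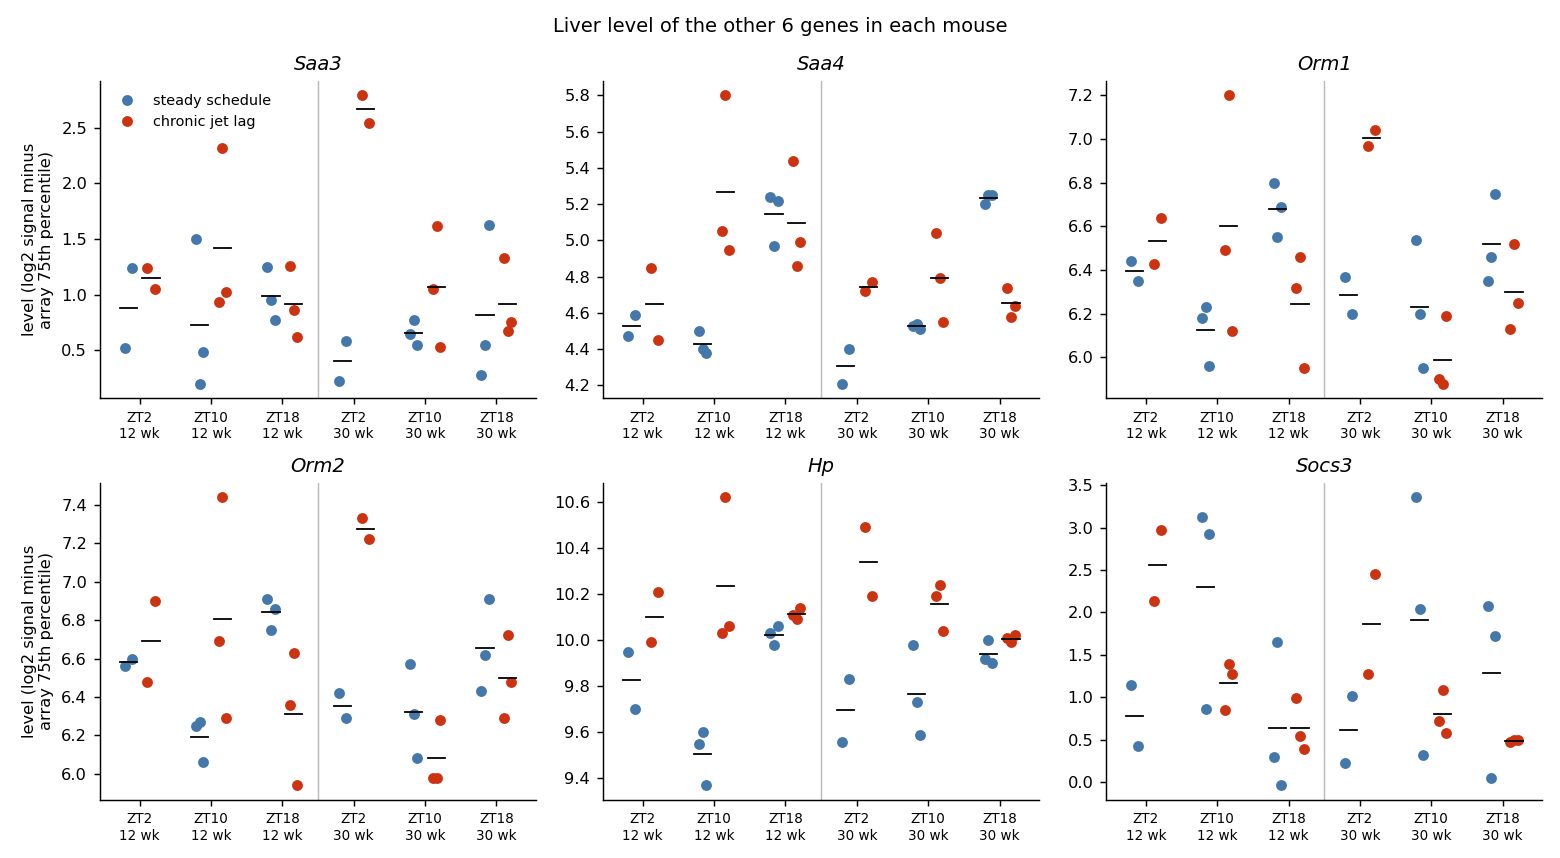
Level of Saa3, Saa4, Orm1, Orm2, Hp and Socs3 in every liver, as log2 signal relative to the 75th percentile of its array, on the vertical axis, by time and age on the horizontal axis; each point is 1 mouse (blue steady schedule, red chronic jet lag) and each bar is the group mean. Each panel has its own scale; for Hp the jet-lagged livers at ZT2 and ZT10 lie at 9.99 or higher and the steady livers of those times at 9.98 or lower, a split that overlaps after quantile normalization and in the authors' deposited values.

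Age was compared within each schedule. Jet lag began at 4 weeks of age, so in jet-lagged mice age and length of jet lag cannot be told apart. In steady mice 0 members changed between 12 and 30 weeks over the mean of the times (0 at an unadjusted p under 0.05, limma), where 0.865% of all genes were called. In jet-lagged mice 4.98% of all genes were called and 2.26% were called higher at 30 weeks, and 1 member, Orm3, was higher at 30 weeks by 0.89 ± 0.22 (adjusted p = 0.022). Without the ZT2 arrays that change turned to -0.06 (adjusted p = 0.93). Within jet-lagged mice at ZT2, where 1.83% of all genes were called and 0.77% were called higher at 30 weeks, Saa1, Saa2 and Orm3 were higher at 30 than at 12 weeks, by 4.07 ± 0.87, 3.78 ± 0.88 and 2.78 ± 0.47 (adjusted p = 0.0166, 0.0267 and 0.00278, limma). Without jet-lagged mouse 1 of 30 weeks, or without jet-lagged mouse 2 of 12 weeks at ZT2, 1 member passed, and without jet-lagged mouse 2 of ZT10 and 12 weeks 5 did.

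Whether the schedule difference at ZT2 itself changed with age was tested as schedule by age. Age and length of jet lag cannot be told apart there either. In that test 0.0692% of all genes were called, and 0 members passed, while 8 had an unadjusted p under 0.05 (limma). The share of all genes at that unadjusted cut-off is not given here. The values were 5.80 ± 1.23 for Saa1 (adjusted p = 0.078), 5.62 ± 1.25 for Saa2 (adjusted p = 0.1) and 3.16 ± 0.67 for Orm3 (adjusted p = 0.078). The interaction for Saa1 thus did not pass, although the fitted difference at ZT2 passed at 30 weeks and not at 12 weeks.

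Time of day was then compared within each schedule. In steady mice Saa4 varied over the 3 times at both ages, with its highest fitted level at ZT18 and a range of 0.73 at 12 weeks (adjusted p = 0.013, limma) and 1.00 at 30 weeks (adjusted p = 0.00258). In the steady livers of 30 weeks Saa4 read 4.21 and 4.40 at ZT2, 4.53, 4.54 and 4.51 at ZT10, and 5.20, 5.25 and 5.25 at ZT18. The levels at ZT18 were above those of both other times without overlap. The skeletal muscle mean of steady livers lay between 0.22 and 1.96 at ZT18 and between -5.08 and -0.20 at the other times. The Saa4 call of 30 weeks was kept in all 14 alternatives. That of 12 weeks was kept in 9 of 14 and lost with acinar and muscle covariates. Hp also varied at 12 weeks, by 0.46 (adjusted p = 0.0401), and no other member was called in steady mice. This Hp call was kept in 6 of 14 alternatives and was also lost with these covariates. Many genes vary with time of day in liver, and in these comparisons 17.5% of all genes were called at 12 weeks and 11.2% at 30 weeks, so the members' 2 of 10 at 12 weeks and 1 of 10 at 30 weeks are near the share of all genes.

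In jet-lagged mice of 30 weeks, where 3.71% of all genes varied with time, 7 members did: Saa1, Saa2, Saa3, Lcn2, Orm1, Orm2 and Orm3. Each had its highest fitted level at ZT2, with ranges from 1.05 for Orm1 (adjusted p = 0.015, limma) to 4.89 for Saa1 (adjusted p = 0.00182). The skeletal muscle mean was -4.71 and -4.92 in these mice at ZT2 and between -4.15 and 3.35 at the other times, and 0 of 11 muscle markers were called over time (11 at an unadjusted p under 0.05, limma). With acinar and muscle covariates 3 members passed, Saa1, Saa2 and Orm3, and Lcn2, Orm1, Orm2 and Saa3 did not (adjusted p = 0.0564, 0.0748, 0.0521 and 0.104). Without jet-lagged mouse 1 of ZT2 3 members passed, and without mouse 2 of that group 4 did. Saa4 ranged over 0.12 in these mice (adjusted p = 0.936). In jet-lagged mice of 12 weeks, where 5.67% of all genes were called, 0 members passed and 6 had an unadjusted p under 0.05 (limma).

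Across the 12 groups the order of the Saa1 group means began with jet lag at ZT2 and 30 weeks (9.71 ± 0.59, SD, n = 2), jet lag at ZT10 and 12 weeks (7.03 ± 2.35, SD, n = 3) and jet lag at ZT10 and 30 weeks (5.87 ± 1.39, SD, n = 3). It ended with steady mice at ZT10 and 12 weeks (4.71 ± 0.44, SD, n = 3), at ZT10 and 30 weeks (4.51 ± 0.22, SD, n = 3) and at ZT2 and 30 weeks (4.48 ± 0.15, SD, n = 2). Neighbours in this order overlapped from the first to the last. For Saa3, Orm1, Orm2 and Orm3 the first group was also jet lag at ZT2 and 30 weeks, and its livers did not overlap with those of the second group. For Orm1 and Orm2 a later group did overlap with it. Jet lag at ZT10 and 12 weeks reached 7.20 and 7.44 for these 2 genes, above the highest 7.04 and 7.33 of the first group. A group of 2 mice can also stand apart by chance, and how many of all genes had such a first group was not counted. For Saa4 the first group was jet lag at ZT10 and 12 weeks (5.27 ± 0.47, SD, n = 3), followed by steady mice at ZT18 and 30 weeks (5.23 ± 0.03, SD, n = 3). For Socs3 it was jet lag at ZT2 and 12 weeks (2.56 ± 0.59, SD, n = 2), followed by steady mice at ZT10 and 12 weeks (2.30 ± 1.25, SD, n = 3), and neighbours overlapped throughout.

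Counted by mouse, 5 of the 16 jet-lagged livers exceeded the highest of the 16 steady livers for Saa1, Saa2 and Lcn2, and 3 did for Saa3, Orm1, Orm2 and Orm3. For Saa4 2 did, for Hp 9 and for Socs3 0. How many of all genes had as many jet-lagged livers above the steady range was not counted, so these counts describe the levels only. The highest steady Saa1 level was 6.11, and the 5 jet-lagged livers above it were at 6.19, 7.44, 9.29, 9.68 and 10.12. The remaining 11 jet-lagged livers were within the steady range. The 5 high livers came from jet-lagged mice at ZT2 and 30 weeks, ZT10 and 12 weeks and ZT10 and 30 weeks.

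Socs3 varied widely between mice of 1 group. In steady mice at ZT10 it read 3.12, 0.86 and 2.93 at 12 weeks and 3.36, 2.04 and 0.32 at 30 weeks. In the 3 livers with Saa1 above 9 it read 1.27, 2.45 and 1.39. Its change was called in 0 of the 6 comparisons of the schedules at 1 time (1 of them at an unadjusted p under 0.05, limma).

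The members' levels were compared with Saa1 across mice. The 3 livers with Saa1 at 9.29 or more stood apart from the other 29, which reached 7.44, so the correlation was computed over the 29. Over these, Saa2 followed Saa1 with r = 0.99 (rho = 0.98) and Lcn2 with r = 0.77 (rho = 0.77), each at the smallest permutation p of 1e-05 (adjusted 4.5e-05 over 9 relations). Without the 2 livers farthest from the median, r was 0.98 and 0.71, and r of the deviations from the group means was 0.99 and 0.78.

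The orosomucoids had lower r over the 29 livers, and the differences between correlations were not tested. Orm3 had r = 0.57 (rho = 0.54; adjusted permutation p = 0.0043 and 0.0062), Orm2 r = 0.46 (rho = 0.58; adjusted p = 0.024 and 0.0036) and Orm1 r = 0.42 (rho = 0.51; adjusted p = 0.04 and 0.0072). Without the 2 farthest livers these r were 0.51, 0.66 and 0.61, and within groups they were 0.70, 0.70 and 0.68. Saa3 had r = 0.38 (rho = 0.52; adjusted p = 0.058 and 0.0072), Hp r = 0.34 (rho = 0.35; adjusted p = 0.091 and 0.072) and Saa4 r = 0.27 (rho = 0.40; adjusted p = 0.19 and 0.042). With these 2 livers left out, r was 0.64 for Saa3, 0.34 for Hp and 0.41 for Saa4. Within groups, r was 0.30 for Saa3, 0.01 for Hp and 0.07 for Saa4. For Socs3 no relation to Saa1 was detected (r = -0.06, rho = 0.01; adjusted p = 0.75 and 0.95), with r = 0.04 without these 2 livers and 0.09 within groups. The livers share times, ages and slides, so these values describe the 29 arrays.

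**Figure D5:**
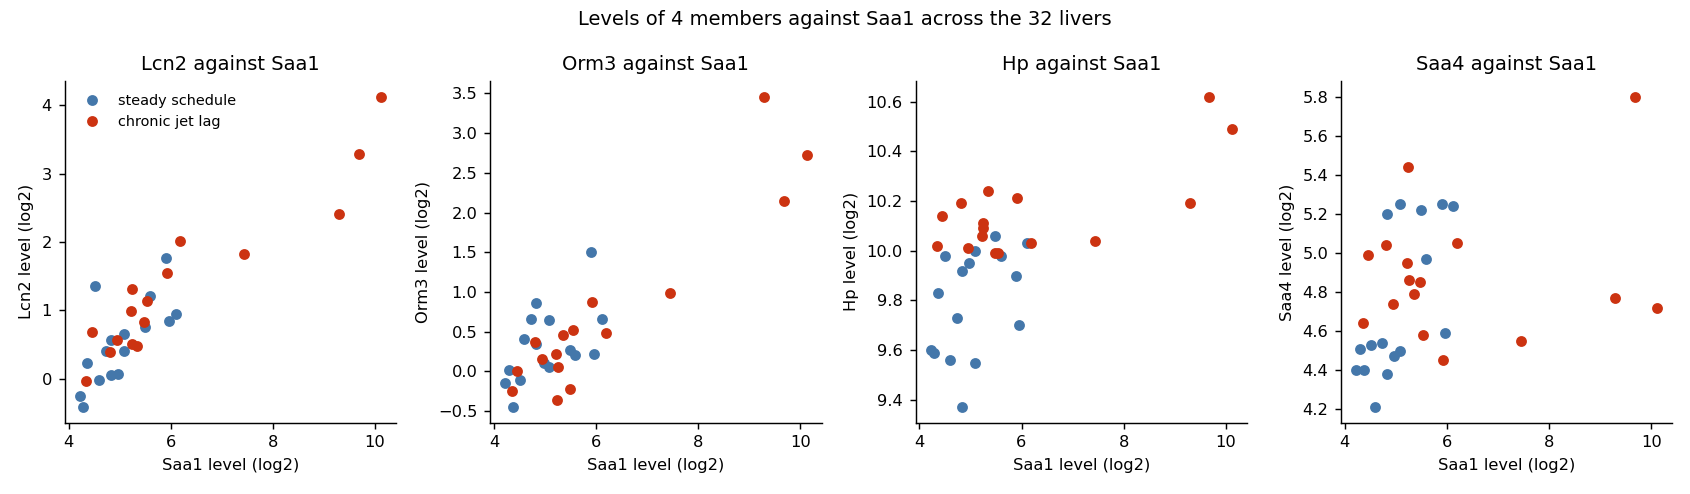
Level of Lcn2, Orm3, Hp and Saa4 (vertical axes, log2) against the level of Saa1 (horizontal axis, log2) in the 32 livers, 1 point per mouse (blue steady schedule, red chronic jet lag). The 3 livers with Saa1 between 9.29 and 10.12 stand apart; over the other 29, r with Saa1 was 0.77 for Lcn2, 0.57 for Orm3, 0.34 for Hp and 0.27 for Saa4.

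Outside the 10 genes, the profiles most like Saa1 over the 32 arrays, among 13515 named genes, were those of Fgl1 (r = 0.848), a hepatocyte-secreted fibrinogen-like protein, Cep55 (r = 0.836), a midbody protein, Il27 (r = 0.756), a cytokine subunit, and Itih3 (r = 0.754). Then came Mrap2, Cpne8, Prg4, C8a, Hc and Lrg1, with r between 0.672 and 0.728. The 3 high livers weigh on these values, and Spearman's rho was 0.547 for Fgl1, 0.502 for Cep55 and 0.314 for Il27. Within groups, r with Saa1 was 0.667 for Fgl1, 0.593 for Cep55, 0.273 for Il27 and -0.056 for Mrap2. Lcn2 was most like Fgl1 (r = 0.866), Lrg1 (r = 0.813) and Cep55 (r = 0.805).

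Several other members shared neighbours with Saa1. Saa2 was most like Fgl1 (r = 0.855), Cep55 (r = 0.811) and Itih3 (r = 0.771). Saa3 was most like Cep55 (r = 0.737), Cpne2 (r = 0.737) and Cpne8 (r = 0.688). Orm3 was most like Cep55 (r = 0.798), Prg4 (r = 0.726) and Il27 (r = 0.695). For Orm3 and Il27 Spearman's rho was 0.254 and r within groups 0.074. Those of Orm1, Orm2 and Hp include Hc, Lrg1 or Itih3, which were also named for Saa1. Orm1 was most like the complement genes Hc (r = 0.813) and C9 (r = 0.743) and the haem carrier Hpx (r = 0.767). Orm2 was most like Hc (r = 0.807), Hpx (r = 0.802) and Serping1 (r = 0.739). Hp was most like Lrg1 (r = 0.827), Hpx (r = 0.808) and Itih3 (r = 0.784). Saa4 was most like Cyp3a13 (r = 0.801), Dio1 (r = 0.792) and Nnmt (r = 0.788), metabolic enzymes. Socs3 was most like the immediate early genes Phlda1 (r = 0.883) and Csrnp1 (r = 0.869) and the transcription factor gene Foxq1 (r = 0.864). The most similar genes of Socs3 and Saa4 were thus none of those named for Saa1.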

How the data were processed

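Liver RNA of 32 mice was measured on 1-colour Agilent arrays of 62976 spots. The authors deposited scanner files with intensity values (processed, median and background signal), made with Agilent Feature Extraction 11.0.1.1 per the file headers, while the submitters' processing notes name version 9.1. A table of log2 values was deposited too by the authors, normalized and with a batch effect removed by a method not given in the sources used here. It was used as an alternative.

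Groups came from the labels. From each deposited intensity, the log2 processed signal was taken, relative to the 75th percentile of its array (between 128 and 302.5). Control spots and outlier spots were left out, and a probe was kept where every array of 1 or more groups had it well above background (30497 of 55681). Between 43.5% and 58.1% of probes were well above background per array. The brightest probe stood for a gene, and symbols came from RefSeq tables. limma 3.58.1 (R 4.3.3) fitted 12 group means on all arrays with slide as a random block (8 slides, correlation 0.244). Tests over 3 times give the range of the fitted values. The scripts were tested on simulated data.

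The 10 genes, the gene lists and the tests were chosen with earlier results of these data known. Named genes were the 10 members, up to 4 genes per list and comparison (called genes first, then by size), a few list genes outside that limit named after their values were seen, and the most similar genes by Pearson's r (10 for Saa1, 3 for each other member). Alternatives were normexp background correction, quantile normalization, the deposited table, filters on dim probes, the mean of a gene's probes, other moderation, slide and replicate blocks, acinar and muscle covariates, 1 age alone and each array left out. Further ones were added after the data were seen: scan day as a block, leaving out acinar-rich arrays and leaving out ZT2. The normexp alternative used the median signal, with an offset of 50, in place of the planned mean signal. A gene of the lists is not reported here.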

Additional observations from a re-analysis of the deposited data

Results flagged for a closer look

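For 5 of the genes the difference between jet-lagged and steady livers at 30 weeks differed between the 3 times of day, by a test of schedule by time (limma, adjusted over all genes). The range of the difference over the times was 6.35 for Saa1 (adjusted p = 0.0108), 6.18 for Saa2 (adjusted p = 0.0146), 4.31 for Lcn2 (adjusted p = 0.016), 4.22 for Orm3 (adjusted p = 0.00296) and 2.49 for Saa3 (adjusted p = 0.048). Without steady mouse 2 of ZT2 and 30 weeks 4 of these calls were lost: Saa1 (6.28, adjusted p = 0.0505), Saa2 (6.10, adjusted p = 0.0603), Lcn2 (4.43, adjusted p = 0.0552) and Saa3 (2.74, adjusted p = 0.087).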

How the results depend on the processing

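Of 508 values of called members under the alternatives, 429 kept their direction and call, 76 lost the call and 3 changed sign. The 3 that changed sign did so without the ZT2 arrays: Lcn2 (-0.14) and Orm3 (-0.26) in the mean over the times at 30 weeks, and Orm3 (-0.06) in age under jet lag. At ZT2 and 30 weeks Saa1, Saa2, Saa3 and Orm3 passed in all 14 alternatives that kept every array or left out arrays by a rule, with Saa1 between 4.72 and 6.24. The other values here are counts of called members. With 1 age alone, 4 passed at ZT2 and 30 weeks, 1 at ZT18 and 30 weeks, 1 at ZT10 and 12 weeks and 0 for time in steady mice of 12 weeks. With the authors' table, 1 passed at ZT10 and 30 weeks, 1 at ZT18 and 30 weeks, 5 at ZT10 and 12 weeks, 2 in the mean at 12 weeks, 6 for age at ZT2 under jet lag, 2 for schedule by age at ZT2, 9 for schedule by time at 30 weeks, 2 at 12 weeks and 2 for time under jet lag at 12 weeks. With normexp, 1 passed at ZT18 and 30 weeks, 5 for age at ZT2, 3 for schedule by age at ZT2, 8 for schedule by time at 30 weeks and 1 for time in steady mice of 12 weeks. With quantile normalization, 5 passed for age at ZT2 and 0 for time in steady mice of 12 weeks. At ZT18 and 30 weeks 1 passed with probes well above background on all arrays and 1 with trend and robust moderation.

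Without the acinar-rich arrays, 1 passed at ZT18 and 30 weeks, 0 at ZT10 and 12 weeks, 2 in the mean at 30 weeks, 0 in the mean at 12 weeks, 0 for age under jet lag, 2 for schedule by age at ZT2 and 1 for time in steady mice of 12 weeks. With acinar and muscle covariates, 0 passed at ZT10 and 12 weeks, 3 for time under jet lag at 30 weeks and 0 for time in steady mice of 12 weeks. Without the ZT2 arrays 0 passed in the mean at 30 weeks. With slide as a fixed block, 1 passed at ZT10 and 12 weeks, 1 for age at ZT2, 0 for age under jet lag and 0 for time in steady mice of 12 weeks. Without a slide block, 0 passed for age under jet lag and 2 for schedule by time at 30 weeks. For time in steady mice of 12 weeks, 1 passed with no filter on dim probes and 0 with scan day as a block. The cause was not tested.

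Leaving out each array in turn gave 3 to 7 called members at ZT2 and 30 weeks, 0 to 1 at ZT18 and 30 weeks, 0 to 6 at ZT10 and 12 weeks, 4 to 6 in the mean at 30 weeks, 0 to 3 for age under jet lag, 1 to 5 for age at ZT2, 0 to 3 for schedule by age at ZT2, 1 to 7 for schedule by time at 30 weeks, 0 to 2 at 12 weeks, 0 to 4 for time in steady mice of 12 weeks, 0 to 3 under jet lag at 12 weeks and 3 to 7 under jet lag at 30 weeks. These fits kept the slide correlation of the full fit, and a lone mouse was assumed to vary like the other groups. With the replicate number as a block, 4 members passed for schedule by time at 30 weeks, Saa3 being lost (2.48, adjusted p = 0.0632, limma), and the other counts of called members were the same. Mice with the same number shared only a number (mean r of deviations -0.02), with 7 of 32 arrays correlating best with their own number.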
